A study of Mus musculus with 2 samples.

Results

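Intervals of accessible chromatin that lay over coding exons, away from promoters, were examined in sorted mouse motor neuron progenitors (pMN). An interval belonged to this set if it was autosomal, overlapped at least 1 base of a coding segment of a protein-coding gene in the GENCODE annotation of mm10, and lay over 2 kb from every protein-coding transcription start site (TSS). There were 6969 such coding intervals among 119502 (5.83%, 95% Wilson interval 5.70 to 5.97%), and they made up 7.09% of the 98229 autosomal intervals over 2 kb from a TSS. They were compared with 39349 intronic intervals at the same distance, which lay inside the body of a protein-coding gene and overlapped no annotated exon.

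The assay was ATAC-seq, in which the transposase Tn5 cuts and tags open chromatin. The labels gave 1 group of 2 replicate libraries, from live cells of a mouse embryonic stem cell line with the fluorescent protein mKate2 at Olig2, sorted for mKate2 after differentiation to day 5 with 100 nM of the Sonic hedgehog agonist SAG and 100 nM retinoic acid, with 50000 cells in each assay. Reporter protein can outlast Olig2 transcription, so the sort may also hold newly born motor neurons and some p3 progenitors, and in such a bulk sample fewer open cells and less opening per cell cannot be told apart. Nothing said that the libraries came from separate cultures, so the spread between them may be technical.

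The libraries held 31876165 and 31672240 counts, and a coding interval had a median of 69 counts in replicate 1 and 70 in replicate 2. The interval at the TSS of Olig2 had 2160 and 2088 counts, and the TSSs of Nkx6-1, Sox2 and Pax6, which pMN cells also use, lay in intervals with in all 2440 to 3278 counts per gene in replicate 1. The p3 gene Nkx2-2 had 2779 and 2661 counts, more than Olig2, and the motor neuron genes Isl1, Mnx1 and Lhx3 had 1417 and 1488, 1184 and 1038, and 463 and 469. Per kb, the order changed. The Isl1 interval, with 1061 and 1113, was above that of Olig2, with 963 and 930, and the Nkx2-2 interval, with 899 and 860, was below it. Genes of the neighbouring cell types were thus open as well, at values near those of Olig2 for Nkx2-2 and Isl1. T, a gene of mesoderm and neuromesodermal cells, had 387 and 307 counts, and no interval covered the TSS of Tbx6, Nanog or Pou5f1.

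Coding exons specify protein, but a part of the genome's regulatory sequence is written over them. Exons of Dync1i1 act as enhancers of the neighbouring genes Dlx5 and Dlx6 in limbs, exons of Hdac9 act on Twist1, and enhancers of Hoxa2 lie partly in its coding sequence. Such an exon has to keep a reading frame and bind transcription factors with the same bases, and introns, which lack this constraint, hold most known enhancers inside genes.

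The windows below show examples of such intervals at the base level. They are 200 bases at the midpoint of 4 of the densest coding intervals that had no near-identical copy, with no UTR base inside the window, read from mm10 on the strand of the gene, with coding bases in capitals and intron in lower case. The rule took only windows with at least 20 coding bases, so the presence of coding sequence in each follows from the choice. Of the 8 windows that the rule chose, these 4 show an exon inside the window, both edges of one, and a window of coding sequence alone.
Prdm2, chr4:143162018-143162217, minus strand: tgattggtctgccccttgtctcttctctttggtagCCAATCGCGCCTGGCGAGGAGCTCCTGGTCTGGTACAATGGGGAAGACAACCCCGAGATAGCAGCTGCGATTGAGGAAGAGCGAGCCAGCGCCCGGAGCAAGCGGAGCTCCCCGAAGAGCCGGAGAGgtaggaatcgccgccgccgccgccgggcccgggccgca
Sox5, chr6:144155108-144155307, minus strand: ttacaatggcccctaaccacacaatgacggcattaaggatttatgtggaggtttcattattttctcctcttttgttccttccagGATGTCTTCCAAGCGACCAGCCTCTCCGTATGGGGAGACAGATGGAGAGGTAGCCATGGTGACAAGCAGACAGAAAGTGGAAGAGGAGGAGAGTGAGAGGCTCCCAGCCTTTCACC
Ccdc102a, chr8:94913370-94913569, minus strand: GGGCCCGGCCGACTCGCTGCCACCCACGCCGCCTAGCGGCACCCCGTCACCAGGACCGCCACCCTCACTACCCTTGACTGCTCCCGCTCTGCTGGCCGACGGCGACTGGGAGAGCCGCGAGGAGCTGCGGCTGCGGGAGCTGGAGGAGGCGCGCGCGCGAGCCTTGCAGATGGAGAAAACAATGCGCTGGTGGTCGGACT
Sptbn4, chr7:27361478-27361677, minus strand: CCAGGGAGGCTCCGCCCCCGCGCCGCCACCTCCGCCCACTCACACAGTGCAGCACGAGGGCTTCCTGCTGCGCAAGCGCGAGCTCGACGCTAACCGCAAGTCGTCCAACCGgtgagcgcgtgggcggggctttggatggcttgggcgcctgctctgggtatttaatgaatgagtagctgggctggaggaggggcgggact
The Prdm2 window held a whole coding exon of 127 coding bases between its splice sites, and the Ccdc102a window was coding over all 200 bases. Sox5 had 116 coding bases after the end of an intron, and Sptbn4 had 111 before the start of one. The exon edge was therefore inside the open interval at Prdm2, Sox5 and Sptbn4.

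Coding intervals were about as accessible as intronic ones. Over coding exons the median was 114.9 normalised counts per kb in replicate 1 and 117.1 in replicate 2, against 116.6 and 119.8 in introns. The ratio was 0.982 ± 0.00571 (SD, n = 2), below 1 in both libraries and in 12 of 19 autosomes, where it ranged from 0.883 to 1.04. When only the outermost start of each gene counted as a TSS, the ratio was 1.08 and its direction changed, so the median gave no firm order of the classes.

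The upper part of the distribution differed more. At the 90th percentile the density over coding exons was 414.8 and 406.0, against 351.4 and 360.1 in introns, a ratio of 1.15 ± 0.0374 (SD, n = 2) that was over 1 in 15 of 19 autosomes. The share of coding intervals at or over 2-fold the intronic median was 22.5% and 21.4%, against 19.01% and 18.6% of intronic intervals. Coding intervals thus held more dense members at a like median, and both libraries showed this. The classes were not matched here. At 2 to 5 kb from a TSS lay 15.4% of coding and 7.24% of intronic intervals. A ratio of observed to expected CpG dinucleotides over 0.6 was found in 8.31% and 0.915%. Alternatives for distance, length, GC, RefSeq starts and CpG were run on the median ratio only, so their part in the upper end was not tested.

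**Figure D1:**
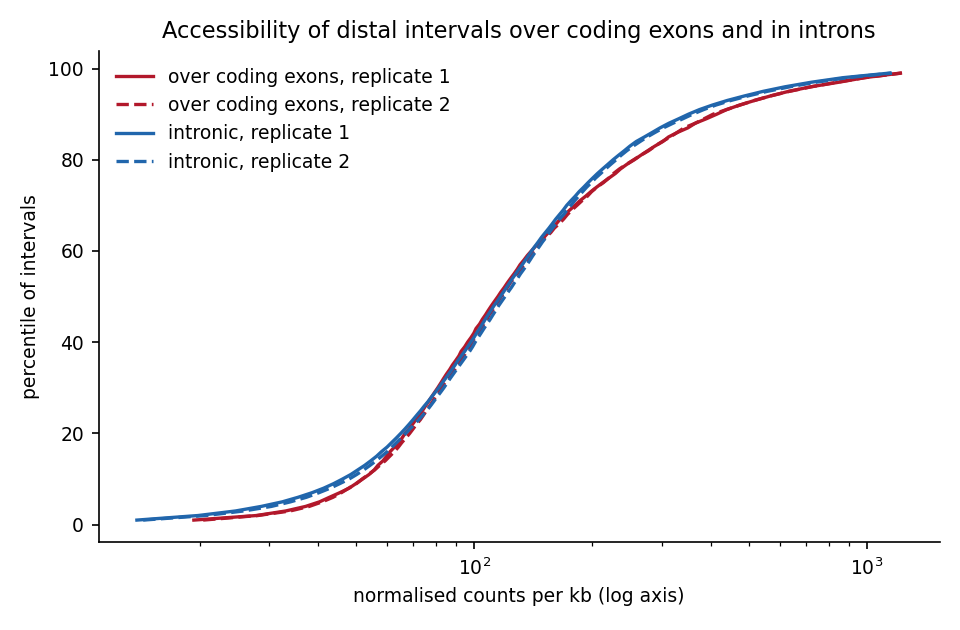
Percentiles 1 to 99 of accessibility (normalised counts per kb, log axis) for coding intervals (red) and intronic intervals at the same distance (blue), replicate 1 as solid and replicate 2 as dashed lines. The coding curve lies slightly to the left at the median, with 114.9 and 117.1 against 116.6 and 119.8, and to the right at the 10th and 90th percentiles.

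Lengths differed between the classes, and the rule has a part in that. Coding intervals had a median length of 607 bp and intronic ones 436 bp, but an overlap of 1 base is easier to meet for a long interval. Intervals that were at least 50% coding had a length ratio of 0.782 to the intronic median, against 1.39 for all. Counted per interval and not per kb, the ratio of coding to intronic medians was 1.43. All coding intervals held 3.57% ± 0.0282 of the counts (SD, n = 2) on 6.28% of the interval length, and intronic intervals held 14.3% ± 0.313 (SD, n = 2) on 26.8%.

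Most intervals were coding only in part. The median coding share of an interval was 24.2%, with a median of 136 coding bases. The midpoint was coding in 2370 intervals (34.0%), 1305 (18.7%) were under 10% coding, and 408 (5.85%) were coding throughout. These 408 were short, with a median of 329.5 bp, and had a median density of 93.4 and 98.9 in the libraries, 96.1 ± 3.87 (SD, n = 2). Intervals that were 10 to under 25% coding had 120.4 ± 1.27 (SD, n = 2), and those under 10% had 118.1 ± 2.22 (SD, n = 2). The highest median of the 6 classes of coding share was in the 349 intervals that were 75 to under 100% coding, with 126.0 ± 1.90 (SD, n = 2), so density followed no single direction with coding share.

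The position in the gene varied as well. Of the coding intervals, 5180 (74.3%) touched internal coding exons only, 1640 (23.5%) the last coding exon and 233 (3.34%) the first, as exons close to the TSS were left out by the rule. The 197 intervals with a start codon had a median density of 154.7 ± 4.47 and a 90th percentile of 813. The 1391 with a stop codon had 136.5 ± 2.39, and the 4679 without start codon, stop codon or UTR had 111.1 ± 2.03 (SD, n = 2 each). Intervals with a start or stop codon were therefore denser at the median than those that held neither and no UTR.

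Some coding intervals may hold a promoter that the TSS set did not contain. When the starts of all transcripts of protein-coding genes counted as TSSs, 5041 of the 6969 still lay over 2 kb away. The rest had such a start within 2 kb. A RefSeq transcript start lay inside 216 of the 6969 (3.10%), against 0.920% of intronic intervals, and 133 (1.91%) overlapped the TSS of a gene of another type. The 216 had a median density of 209.5 and 205.3 in the libraries, and the other 6753 had 113.3 and 116.0. An alternative added once the data had been seen left out the intervals with a RefSeq start, and the density ratio of the classes was then 0.971. The values on each side of the 2 kb limit were 180.1 ± 4.81 for the 469 intervals over coding exons at 1 to 2 kb and 201.5 ± 1.47 for the 407 at 2 to 3 kb (SD, n = 2 each).

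Distance to the TSS changed the comparison. At 2 to 5 kb the 1070 coding intervals had a median density of 166.2 and 172.0, against 148.9 and 151.6 in introns, a ratio of 1.12 ± 0.0131 (SD, n = 2). From 20 to 50 kb the ratio was 0.927 ± 0.00110, and the 312 coding intervals over 100 kb away had 1.05 ± 0.0183 (SD, n = 2 each). The ratio was over 1 in 2 of the 6 distance bins, the nearest and the farthest. Coding intervals also lay nearer to a TSS, with a median distance of 13401 bp against 30123 bp, and for 4709 of them (67.6%) the nearest TSS was that of the gene whose exon they covered.

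**Figure D2:**
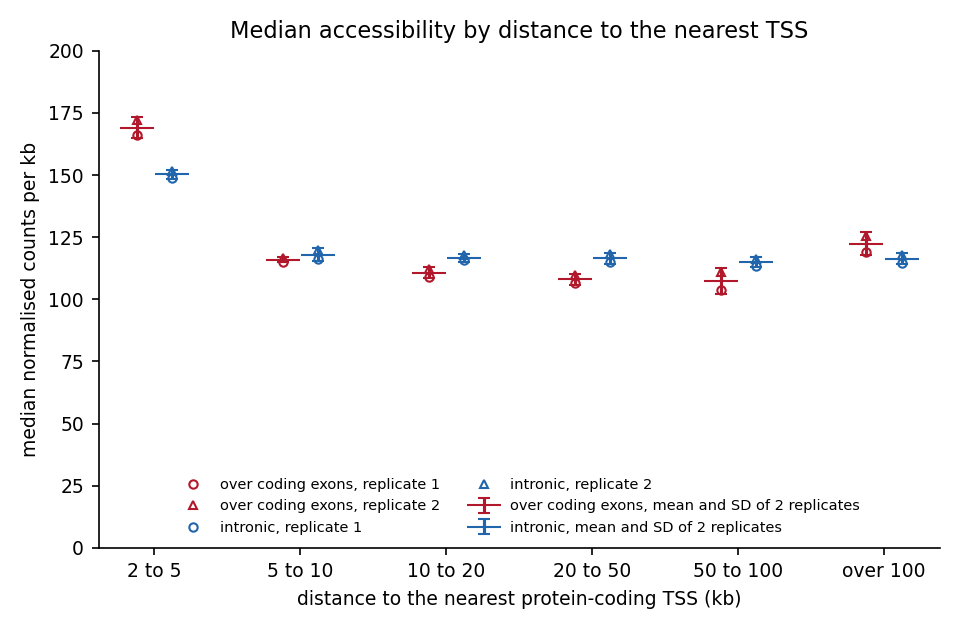
Median accessibility (normalised counts per kb) by distance to the nearest protein-coding TSS (kb), for coding (red) and intronic (blue) intervals; circles and triangles are replicates 1 and 2, and the lines are mean and SD (n = 2). Both classes are highest at 2 to 5 kb, with 169.1 over coding exons and 150.3 in introns, and lie between 107.3 and 122.4 beyond 5 kb.

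Sequence composition differed between the classes. The rule did not use it directly, but defined the classes by overlap with coding segments and by lack of exons. The median GC content was 53.5% over coding exons and 48.2% in introns, a difference of 5.26 percentage points that was above 0 in 19 of 19 autosomes. The median ratio of observed to expected CpG dinucleotides was 0.292 against 0.197. Repeats that were soft-masked in the genome made up a median of 6.49% of a coding interval and 8.84% of an intronic one. The GC difference rose with the coding share, to 8.51 where the midpoint was coding and 10.5 for intervals at least 50% coding. All coding and intronic bases, open or not, were not compared as a baseline. Whether open coding sequence differs in composition from other coding sequence was therefore not tested.

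CpG-rich coding intervals were denser than the others. Where the observed to expected CpG ratio was over 0.6, 579 coding intervals (8.31%) had a median density of 265.7 and 261.0, against 129.9 and 133.4 for 360 intronic intervals (0.915%). The ratio there was 2.00 ± 0.0636 (SD, n = 2), and it was 0.905 ± 0.00368 where the CpG ratio was 0.2 to 0.4. The CpG-rich coding intervals were also longer than the intronic ones, with medians of 750 and 266.5 bp, and the part of length in this difference was not tested. With CpG-rich intervals left out of both classes, which was also tried after the data had been seen, the ratio was 0.940.

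Where intervals fell was then measured base by base. Of the 25.9 Mb of coding sequence over 2 kb from a TSS, 5.67% lay inside intervals, against 3.11% of 831 Mb of intronic sequence, a ratio of 1.82. The ratio was over 1 in 19 of 19 autosomes and ranged from 1.38 on chromosome 9 to 2.16 on chromosome 15. Over bases that were not soft-masked, a setting tried after the data had been seen, it was 1.51.

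Coverage was highest on chromosome 8, with 9.82% of coding and 4.61% of intronic bases. The other autosomes ranged from 3.86 to 6.80% for coding and from 2.46 to 3.99% for intronic bases. Without chromosome 8 the ratio was 1.80, and the density of coding intervals on chromosome 8, 117.7 ± 4.49, was close to the 115.9 ± 1.32 of the others (SD, n = 2 each).

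Long coding exons were touched more often. Of 154921 merged coding segments over 2 kb from a TSS, 8931 (5.76%) were touched by an interval. The share rose from 4.47% of segments of up to 100 bp to 18.9% of those over 1 kb, as a longer segment offers more bases to touch. The share of bases covered was highest, at 9.12%, for segments over 500 and up to 1000 bp, and was 4.01% for those of up to 100 bp.

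**Figure D3:**
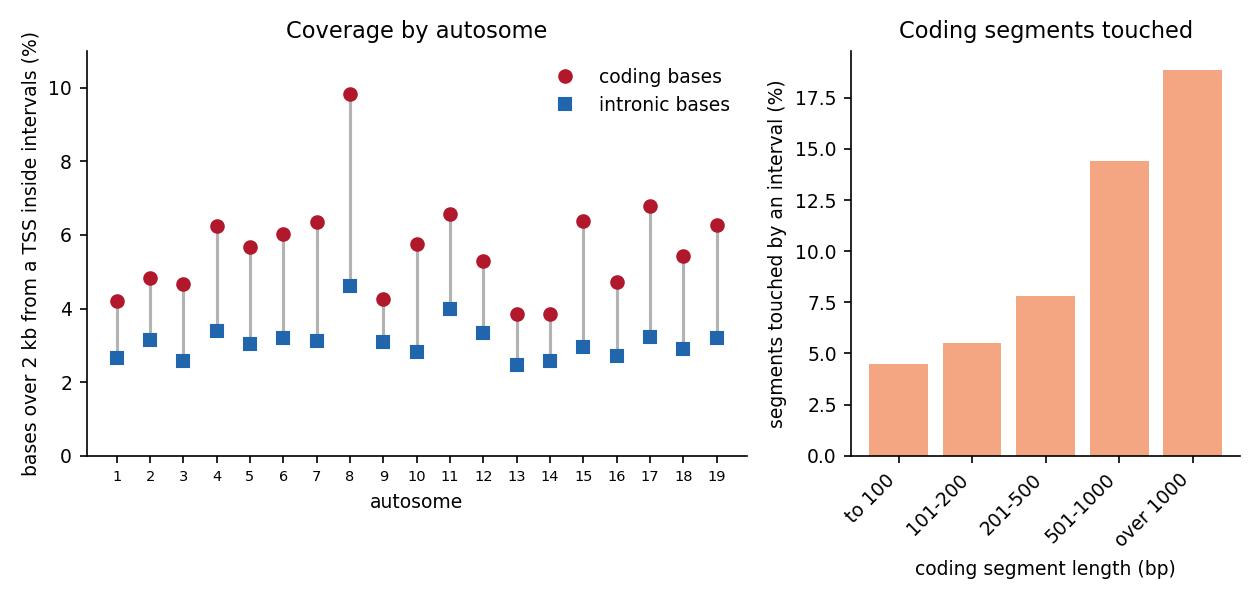
Left, the percent of coding (red) and intronic (blue) bases over 2 kb from a TSS that lay in intervals, for each autosome; right, the percent of coding segments touched by an interval, by segment length (bp). Coding coverage is above intronic coverage on all 19 autosomes and reaches 9.82% on chromosome 8, and the share of segments touched goes from 4.47 to 18.9%.

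Motif matches were counted in the central 300 bases of each interval, on both strands and separately for each motif, so that overlapping matches count for each. Intronic intervals were also weighted to the GC bins of the coding ones, since coding intervals are richer in GC. A match is a string of letters and no proof of binding.

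The core motif of CTCF, the zinc finger protein that anchors chromatin loops, was found in 327 coding intervals (4.69%). The share was 2.60% of intronic intervals, 2.54% after GC weighting and 3.12% of all autosomal intervals over 2 kb from a TSS. Coding intervals with the match had a median density of 189, and those without it had 112. Intronic intervals differed alike, with 182 and 116.

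In 51 of these 327 windows the match lay wholly in coding bases. Of all bases in the central windows of coding intervals, 32.6% were coding. The densest of the 51, 1 for each gene and without a near-identical copy, are shown to place the motif (capitals) in 20 bases of flanking coding sequence on each side. They were chosen after their values were seen, and are written 5′ to 3′ in the orientation of the motif, with the strand of mm10 that is read.
Hey1, chr3:8664672-8664723, plus strand: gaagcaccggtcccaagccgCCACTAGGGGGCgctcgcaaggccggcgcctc
Smarcd3, chr5:24598740-24598791, minus strand: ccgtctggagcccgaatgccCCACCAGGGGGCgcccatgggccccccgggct
Gpr153, chr4:152283359-152283410, minus strand: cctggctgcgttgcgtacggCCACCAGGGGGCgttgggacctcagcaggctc
Gm30191, chr4:134249805-134249856, plus strand: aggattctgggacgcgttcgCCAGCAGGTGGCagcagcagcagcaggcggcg
Mroh6, chr15:75884277-75884328, minus strand: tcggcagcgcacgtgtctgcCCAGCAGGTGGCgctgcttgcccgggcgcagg
Tmem8, chr17:26120313-26120364, plus strand: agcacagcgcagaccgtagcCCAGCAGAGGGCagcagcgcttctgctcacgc
All 52 bases of each window were coding. Hey1, a transcriptional repressor downstream of Notch, had 390 and 404 counts at an interval in its last coding exon, a density of 1171 ± 28.5 (SD, n = 2). Smarcd3, a subunit of the BAF remodelling complex, had 705 and 656 counts, Gpr153, an orphan receptor, had 787 and 743, and Tmem8 had 145 and 140. Densities of the others were 886 ± 55.8 at Gm30191 and 571 ± 9.56 at Mroh6 (SD, n = 2 each).

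NRF1, a factor of housekeeping promoters, has the motif GCGCANGCG, which was found in 98 coding intervals (1.41%) and 0.180% of intronic ones. The GC-weighted intronic share was 0.464%, but the weighting did not match CpG content, and the motif holds CpG. Coding intervals with the match had a median density of 294, and those without it 114, whereas intronic intervals had 117 with it and 118 without. The GC box GGGCGG, bound by Sp factors, was in 15.5% of coding and 7.19% of intronic intervals, and the coding share was 0.969 times the GC-weighted intronic share. The ETS motif CCGGAAG was in 2.78% of coding and 1.39% of intronic intervals, or 2.24% after weighting.

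Motifs rich in A and T were rarer over coding exons. The homeodomain motif TAATTA was in 3.83% against 8.03% (5.49% after weighting), the FOX motif TGTTTAC in 2.86% against 5.03% (3.75%) and the POU octamer ATGCAAAT in 1.12% against 2.22% (1.75%). The SOX motif ACAATG, bound by Sox factors, among them those of neural progenitors, was in 16.7% against 23.6%, but 18.0% after weighting. Over 14 motifs, the share was lower over coding exons than in introns for 8, and for 10 after GC weighting.

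**Figure D4:**
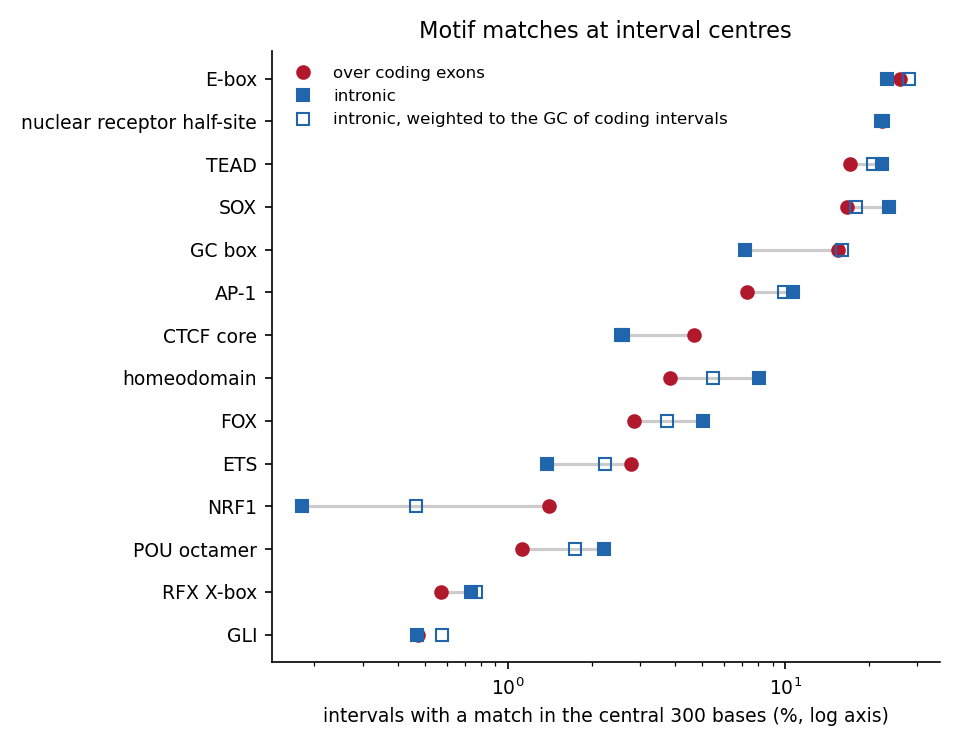
Percent of intervals with a motif match in the central 300 bases (log axis) for coding intervals (red circles), intronic intervals (filled squares) and intronic intervals weighted to the GC content of the coding ones (open squares). CTCF, ETS and NRF1 lie to the right over coding exons under both comparisons, at 4.69, 2.78 and 1.41%, and the homeodomain, FOX and POU motifs lie to the left.

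The densest coding intervals were compared with the promoters of their genes. The highest, over coding exon 5 of Igdcc3, a neural immunoglobulin superfamily gene, lay at chr9:65178274-65179312 in mm10 and had 3261 and 3284 counts, 3150 ± 13.8 normalised counts per kb (SD, n = 2). The interval at the Igdcc3 promoter had 971. The exon interval was 13.3% coding and 16.04 kb from the nearest TSS, which was that of Parp16.

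Slc12a8, a member of the cation-chloride cotransporter family, had 2502 and 2476 counts at chr16:33605674-33606676, a density of 2482 ± 19.8 (SD, n = 2). Its promoter interval had 86.3. The exon interval, over coding exon 6, held an annotated start codon and 5 UTR bases, and whether a promoter lies there was not tested. Phf19, a Polycomb-like partner of the PRC2 complex, had 2483 and 2302 counts at chr2:34904678-34905643, or 2477 ± 134 (SD, n = 2), against 257 at its promoter.

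Lfng, the fringe glycosyltransferase that modifies Notch, had 3694 and 3944 counts at chr5:140610725-140612299, or 2425 ± 111 (SD, n = 2). Its promoter interval was nearly as dense, with 2294. Only 3.68% of this interval was coding, the lowest share among the 10 densest.

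The other 6 of the 10 densest lay over exons of Sars, the cytosolic seryl-tRNA synthetase, Prdm2, a histone methyltransferase of the PR domain family, Sox5, a SoxD factor, Mxra7, Atn1, a nuclear corepressor, and Eps8l1, an actin regulator. Their densities ran from 2371 ± 12.02 at Sars to 2144 ± 126 at Eps8l1 (SD, n = 2 each). The Sox5 interval, at chr6:144154868-144155547, lay 53.9 kb from the nearest TSS and had 1421 and 1542 counts, and the Prdm2 interval, at chr4:143161609-143162625, 32.1 kb away, held a RefSeq start. Of the 10, 9 belonged to a gene with a promoter interval, and all 9 exceeded it. The choice of the densest intervals favours this, as the median promoter interval of host genes had 879. None of the 10 matched another place in the genome over 100 bp at 90% identity.

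**Figure D5:**
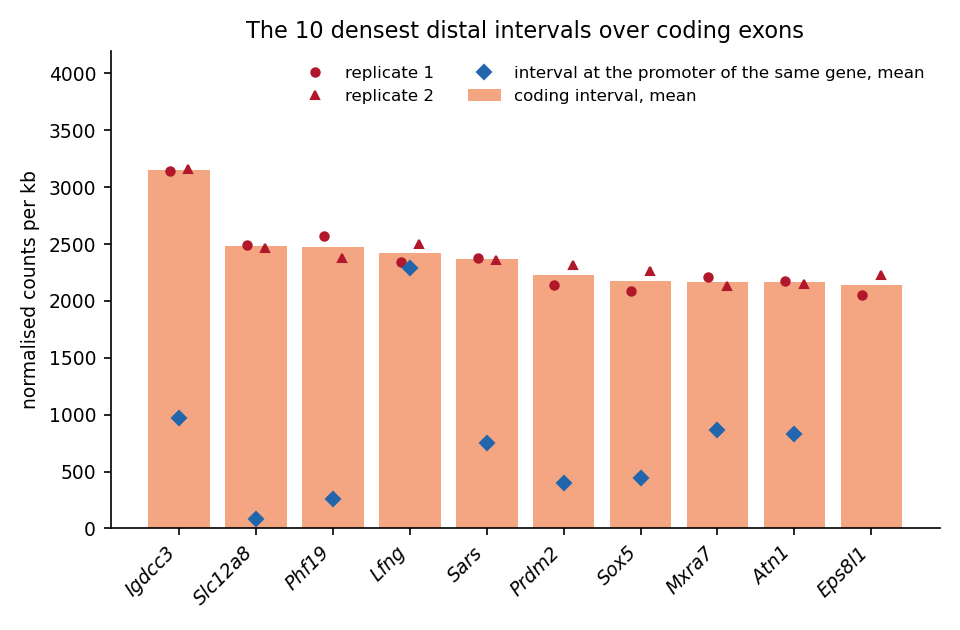
The 10 coding intervals with the highest accessibility (normalised counts per kb), with the mean as bars, replicates 1 and 2 as circles and triangles, and the densest interval at a promoter of the same gene as diamonds (Eps8l1 had none). All bars are above the promoter interval, by the least at Lfng, with 2425 against 2294.

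These 10 were not typical in this respect. Over the 6081 coding intervals whose gene had a promoter interval, 502 (8.26%) were denser than it, and the median ratio to the promoter was 0.143. A coding interval reached the median density of intervals at protein-coding TSSs, 811, in 222 cases in replicate 1 and 235 in replicate 2, a share of 3.28% ± 0.132 against 2.41% ± 0.190 of intronic intervals (SD, n = 2 each). The 212 that did so in both libraries had a median GC content of 58.8% and a length of 951 bp, and 8.96% of them held a RefSeq start. For the 872 such intronic intervals the values were 49.8%, 843 bp and 2.75%. Of the 212, 36.3% lay within 5 kb of a TSS, against 15.4% of all coding intervals and 15.8% of the 872. Their median CpG ratio was 0.502, against 0.215 for the 872. The part of distance and CpG content in the higher coding share was not tested. Across the 4151 host genes with a promoter interval, the densest coding interval and the promoter were nearly unrelated (Spearman's rho -0.0809, Pearson's r -0.0456 on the log2 scale), where both values come from the same libraries and genes are not independent replicates.

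The 5 intervals with the most coding bases ranged in density from 49.2 to 285 normalised counts per kb. The first lay over the long coding exon 5 of Pprc1, a coactivator related to PGC-1, at chr19:46062582-46065507. It had 2869 coding bases, 98.1% of its length. It had 145 and 143 counts, only 49.2 ± 0.512 per kb (SD, n = 2), and its promoter interval had 1382. The others were in Shank1, a postsynaptic scaffold, with 285 ± 10.8, Cilp2, a cartilage matrix protein, with 268 ± 7.88, Plec, a cytoskeletal linker, with 185 ± 5.68, and Zfp865, a zinc finger gene, with 162 ± 3.77 (SD, n = 2 each).

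The coding intervals belonged to 4831 of 20807 autosomal protein-coding genes (23.2%), and 3393 of these genes had 1 such interval. The gene with the most was Ryr1, the calcium release channel of skeletal muscle, with 10. Their densities ranged from 93.8 to 411 in replicate 1 and from 80.0 to 399 in replicate 2. The densest, at chr7:29039543-29040734, had 490 and 462 counts, and the most coding, at chr7:29019440-29020275, was 94.7% coding and had 300 and 334.

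Sfi1, a centrosomal protein gene, had 9, and 4 of these 9 matched another place in the genome, so their counts may include reads from copies. One of them, at chr11:3131289-3137898, was 6610 bp long, the longest of all autosomal intervals over 2 kb from a TSS, and had 8 such matches. Trio, a guanine nucleotide exchange factor that acts in axon growth, had 9, with a median of 90.1. Sptbn4, which encodes a spectrin of axon initial segments, had 8, as did Cacna1a, Fat1, Gcn1l1 and Hmcn2. The Sptbn4 intervals ranged from 159 to 1711 in replicate 1 and from 178 to 1624 in replicate 2. Matches elsewhere were present in 273 coding intervals (3.92%), against 87 of 6559 sampled intronic ones (1.33%), and none matched the mitochondrial genome.

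Gene lists relevant to these cells were then described against all coding intervals, for which the median was 116.0 and 5.67% of coding bases far from a TSS were covered. Coverage counted every interval, also those that reached within 2 kb of a TSS and so were not coding intervals of this set. In the list of neural tube patterning factors, 10 of 37 genes had 12 coding intervals with a median density of 491.8 and 429.2. Of their coding bases over 2 kb from a TSS, 35.7% were covered, on 15.1 kb. The 56 intronic intervals of the same genes were also above the intronic background of 117.6, with a median of 292.0. Nkx6-1, a homeodomain factor of ventral progenitors, had 393 and 374 counts over its last coding exon at chr5:101659417-101659867, or 850 ± 30.3, and Irx5 had 518 and 460, or 810 ± 68.4 (SD, n = 2 each). Prdm13 had 725 ± 21.4 and Zic2, a zinc finger factor of dorsal progenitors, 708 ± 39.7 (SD, n = 2 each). These 4 intervals lay 2.29 to 5.33 kb from the nearest TSS and had CpG ratios of 0.558 to 0.854. The background was not matched to the list for distance or CpG content.

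The Notch pathway, which holds progenitors back from differentiation, had 21 coding intervals in 12 of 23 genes. Their median was 310.1 and 319.4, against 158.0 for the 127 intronic intervals of these genes, and 11.8% of the coding bases were covered. Beside Lfng and Hey1, the ligand Jag1 had 823 and 849 counts at chr2:137092498-137093193, or 1201 ± 25.7, above the 788 of its promoter interval. The receptor Notch2 had 927 ± 37.9 (SD, n = 2 each), but only 3 bases of that interval were coding.

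The hedgehog pathway was close to the background, with 24 intervals in 14 of 23 genes, a median of 118.1 and 112.8, and 7.64% of coding bases covered. Kif7, a kinesin of the primary cilium that acts on Gli proteins, had 619 counts in both libraries, or 839 ± 0.485. Shh, the ligand itself, had no interval at its TSS, but had 1076 and 956 counts over its last coding exon at chr5:28457920-28460280, or 430 ± 36.2. That interval also overlapped the TSS of a gene of another type. Gli3 had 327 ± 11.7 at 250.4 kb from the nearest TSS (SD, n = 2 each).

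Hox genes, which give cells their position along the body axis, had 4 coding intervals, in Hoxa3, Hoxc9 and Hoxc13. The median was 704.7 and 643.5, against 382.0 for the 10 intronic intervals of these genes. Of the 5.10 kb of Hox coding bases far from a TSS, 48.6% were covered, in part by intervals not counted among the 4. The densest, at chr6:52170598-52170857 over Hoxa3, had 1117 ± 72.8 (SD, n = 2) and 1 match elsewhere in the genome, so its counts may include reads from a copy. The second, also in Hoxa3, had 965 ± 29.5, overlapped the TSS of a gene of another type and held a RefSeq start. Hoxc9, with 383 ± 57.0, also held a RefSeq start, and Hoxc13 had only 123 ± 14.9 (SD, n = 2 each). The median thus stands for a wide spread. The hosts of described exonic enhancers had 5 coding intervals in 2 of 3 genes, with a median of 146.1 and 138.1. Their 32 intronic intervals had 219.1. The densest, over Hdac9, had 209 and 208 counts at chr12:34287289-34287612, or 644 ± 2.55. Dync1i1 had 522 and 478 at chr6:6004957-6006419, or 342 ± 21.5. Other Hdac9 intervals had 142 ± 5.61 and 103 ± 4.62 (SD, n = 2 each). Whether these intervals are the described enhancers was not tested.

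Of the 13 lists, genes of other tissues had the smallest share of coding bases covered. Of their 178.9 kb of coding bases far from a TSS, 0.956% lay in intervals, although the 16 intervals themselves, in 8 of 16 genes, had a median of 120.2 and 131.7. Alb, the serum albumin gene of the liver, had 246 and 257 counts at chr5:90467337-90467879, or 463 ± 14.1 (SD, n = 2), with no interval at its TSS. Ttn, the giant protein of the sarcomere, had 226 ± 21.5 (SD, n = 2). With 346 coding exons, Ttn may weigh heavily in the share of bases covered for this list.

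The other lists lay near the background. Axon guidance genes had 48 intervals with a median of 121.0 and 129.0, among them Plxna1, a semaphorin receptor, with 888 ± 14.0, and Robo3, a receptor of commissural axons, with 886 ± 47.3. Chromatin regulators had 61 intervals with a median of 92.6 and 89.6, led by the remodeller Chd7 with 1297 ± 50.8. Collagens and laminins had 64 with 99.1 and 108.7, and 3.93% of their coding bases covered.

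Voltage-gated channels had 67 intervals with 130.9 and 131.9, led by the potassium channel Kcnh2 with 1832 ± 7.61. Large cadherins and LDL receptor relatives had 32 with 113.6 and 112.7, led by Celsr2, a cadherin of planar cell polarity, with 992 ± 8.42. Zfp zinc finger genes had 57 with 112.8 and 96.6, among them an interval over Zfp771 with 1542 ± 4.86 (SD, n = 2 each). Clustered protocadherins had 1 coding interval, with 95.7 and 98.7, although 20.5% of their coding bases far from a TSS were covered, because most of those bases lay in intervals that reached within 2 kb of a TSS. Over the 13 lists, the coding median was above the intronic median of the same genes in 6. The 2 measures were not quite alike. The coding value was the mean of the 2 library medians, and the intronic value was the median of the mean densities. One of the 6 was the Zfp list, with 104.7 against 104.0, where the libraries fell on both sides.

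The replicates matched closely over coding exons. R2, the square of Pearson's correlation on the log2(normalised count + 1) scale, was 0.945 across coding intervals and 0.937 across intronic intervals, and 0.979 and 0.975 where the mean normalised count was over 100. The two-sided exact binomial test between libraries, with Benjamini-Hochberg adjustment over all intervals, called 0 coding intervals at 0.01, where the background was 0% of 119502. An unadjusted p under 0.05 was found for 575 coding intervals (8.25%), against 7.84% of all intervals tested. With edgeR's TMM factors it was again 0 coding intervals, with 6 among all intervals.

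A mean normalised count over 100 was reached by 2695 coding intervals, and 5 of these (0.186%) were over 1.5-fold apart between the libraries, against 0.108% of all intervals. The largest difference was over Ednrb, the endothelin receptor of neural crest, with 84 and 147 counts (log2 ratio 0.81, adjusted p = 0.0910 by the exact binomial test). Next were Chaf1b, a subunit of chromatin assembly factor 1, with 78 and 126, Baiap2, a membrane and actin adaptor, with 94 and 151, and Tmem135 with 137 and 211. Ankrd6, a regulator of Wnt signalling, went the other way, with 145 and 96 counts. The test compared the libraries and not conditions.

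At the low end, 6853 of the coding intervals (98.3%) had a mean normalised count of at least 10, against 95.8% of intronic ones. In 5 coding intervals 1 library had no count, which allows up to 3 counts, and none was empty in both. The weakest, over Pdcd1lg2, had 1 count in each library.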

How the data were processed

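ATAC-seq was performed by the submitters on 2 replicate libraries of 1 group. Per the study's methods, reads were aligned to mm10 with nf-core atacseq (1.2.0) and peaks were called with MACS and merged into consensus intervals. The authors deposited raw counts of fragments per interval, made with featureCounts (2.0.1) per the file header, and interval lengths. The intervals were defined over 5 libraries, and the 3 columns that no sample matched were left unused, so an interval can be weak in the 2 libraries analysed here. Every interval that held at least a fraction of 0.2 of a fragment counted it, and without molecular identifiers intervals and limits cover counting error only.

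Density was the count over the DESeq2 (1.42.0) size factor, per kb of interval length. Genes came from GENCODE M21 and further starts from RefSeq. A TSS was the start of a protein-coding transcript of a protein-coding gene, and distance was measured from the nearest edge. Replicates were compared with a two-sided exact binomial test on all 119502 intervals, with Benjamini-Hochberg adjustment, tested on simulated data. Classes were described by medians in each library, since 1 group allows no test between conditions. Matches elsewhere were found with BLAST+ (2.17.0), in 1 of 6 intronic intervals. Python (3.11.15), scipy (1.17.1), pandas (2.3.3) and edgeR (4.0.16) were used.

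The members, the gene lists, the motifs and the tests were chosen with earlier results of these data known. Named intervals followed a rule: the 10 densest, the 5 with the most coding bases, the 5 with the largest ratio between replicates over a mean normalised count of 100, up to 4 of the densest per gene list, and the 5 genes with the most intervals, where ties were all named. Alb, Ttn and the others under a list are among its densest. The CTCF windows and the weakest interval were chosen after their values were seen. Alternatives covered the TSS set, distance limit, coding share, normalisation, filters, weighting and replicates.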

Additional observations from a re-analysis of the deposited data

How the results depend on the processing

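Values are called moved where the change was over 1 SD between the replicates, or between the autosomes for properties of the interval set, and counts where it was over 1.5 times. No paired analysis was possible because the labels gave 1 group. The causes of these shifts were not tested, beyond the fewer intervals that stricter rules keep. Of 21 alternatives for the density ratio of 0.982, 19 gave a value under 1. Among these, TMM and total counts could not change it, because a size factor cancels in a ratio within each library. The density ratio reversed to 1.08 with gene starts only and to 1.43 with counts per interval. It moved to 0.973 with starts of all transcripts, 0.957 and 0.947 with limits of 5 and 10 kb, 0.975 with the midpoint in coding sequence, 0.918 with at least 50% coding, 0.960 and 0.921 with mean normalised counts of at least 10 and over 100, 0.961, 0.943 and 0.948 with introns weighted to distance, length and GC, and 0.992 without matches elsewhere. Added after seeing the data were 0.971 without RefSeq starts and 0.940 without CpG-rich intervals. With either replicate left out it ranged from 0.978 to 0.986. The number of coding intervals became 4238 at 10 kb, 2370 by the midpoint and 1493 at 50% coding. Under the same coding rules the length ratio became 1.08 and, reversed, 0.782, and was 1.53 with gene starts. The GC difference became 4.14 at 10 kb, 8.51 by the midpoint and 10.5 at 50% coding. The coverage ratio became 1.55 at 10 kb, 2.07 for intervals with a mean over 100 and 1.51 outside soft-masked bases. The share at or over 2-fold the intronic median became 39.7% with counts per interval and ranged from 21.4 to 22.5% with either replicate left out. The other 36 of 64 values stayed within these limits, among them all for the replicate correlation and the binomial test. Also among them were the density ratio with TMM or total counts and the 2-fold share with TMM, which could not differ. With a median of 69 counts, a single coding interval carries counting error that hides small differences.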
